A study of Mus musculus with 4 samples.

Results

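A set of 8 genes for cell surface or secreted proteins that are used to recognise progenitor-like stromal and vascular cells were followed through the healing mouse carotid artery. They were Ly6a, Ly6c1, Cd34, Thy1, Pi16, Dpp4, Cd248 and Eng, chosen by name, out of the 31053 genes in the count tables, of which 20506 had at least 1 UMI (unique molecular identifier, a tag that counts each captured RNA molecule once). All 8 members were measured, with between 1779 UMIs for Dpp4 and 33424 for Ly6a over all barcodes.

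The samples were 4 droplet-based single-cell RNA libraries from carotid arteries of male C57BL/6 mice. The mice were 11 weeks old at surgery, in which a wire was passed through the left carotid. Day 0 was the uninjured artery, and days 3, 7 and 14 were counted from the injury. No group carried a transgene or received a drug, so the groups differed by the injury and the time after it. Arteries of several mice were pooled into each library, and vessels with signs of thrombosis were discarded before pooling. With 1 library per day there is no replicate, so no test is given: the 95% intervals are exact Poisson intervals for levels, exact conditional intervals for ratios and Clopper-Pearson intervals for shares of cells, and all of them cover counting error only. The study asked which cells build the neointima, the new inner layer that narrows an injured vessel, and one candidate was a modulated smooth muscle cell with features of stem cells.

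Ly6a (Sca-1), Ly6c1 and Thy1 (CD90) are small proteins held on the outer membrane by a lipid anchor. Ly6a is a classical marker of mouse blood stem cells and of progenitors in the adventitia, the outer coat of an artery. Cd34 is a sialomucin of blood progenitors, endothelial cells and adventitial fibroblasts. Pi16, a protein of the CAP family, and Dpp4 (CD26), a peptidase that removes dipeptides from chemokines and hormones, together mark fibroblasts of perivascular and fascial layers that have been described as a reserve for other fibroblasts. Cd248 (endosialin) is a C-type lectin-like receptor of stromal cells, and Eng (endoglin) is a co-receptor for ligands of the TGF-beta and BMP families with its highest known levels in endothelium.

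After quality filters, 5403 of 6161 barcodes were kept, 281, 1403, 2690 and 1029 in the order of days, with median depths between 5458 and 10750 UMIs. The libraries shared barcodes beyond single cases: 152 barcodes were called at both days 0 and 3 (45.6% of the day 0 barcodes) and 64 at both days 7 and 14. The shallower copies had medians of 759 and 662 UMIs, 22.8 and 89.2 times fewer than the deeper ones, and 134 of 150 and 53 of 61 pairs fell in the same cell class. The shallower copy was removed, and values with the copies kept are given where they bear on a result. Cells were clustered without the members among the variable genes and named from marker lists. Fibroblast-like cells numbered 241, 221, 271 and 555 from day 0 to day 14 and carried all 10 fibroblast markers at 50 counts-per-million (CPM) or more on each day. Smooth muscle-like cells numbered 7, 68, 55 and 69, with all 12 of their markers at that level at day 0 and 10 of 12 afterwards. Endothelial-like cells numbered 6, 40, 57 and 18.

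Across the 4 libraries summed, the 8 members fell into several class patterns. In these sums Ly6a, Ly6c1, Cd34 and Eng were highest in endothelial-like cells and second in fibroblast-like cells. The order differed by day: endothelial-like cells had less Ly6a than fibroblast-like cells at day 3 (607 against 2088 CPM) and, in the sums, at day 14 (376 against 868 CPM, but 1047 against 850.4 CPM when each cell counted equally) and less Ly6c1 at day 3 (99.5 against 297 CPM), and for Eng at day 3 the intervals overlapped (84.6 and 102 CPM). At day 7 Ly6a was higher in endothelial-like cells, from 57 cells of which 8 gave 73.0% of the UMIs. Ly6a had 1650 CPM (1573 to 1729) in endothelial-like and 1147 CPM (1133 to 1161) in fibroblast-like cells, and Ly6c1 had 644 CPM (596 to 694) and 247 CPM (241 to 254). For Cd34, the endothelial-like level of 430 CPM (391 to 471) and the fibroblast-like level of 400 CPM (392 to 408) could not be told apart by their intervals. Eng had 308 CPM (275 to 343) in endothelial-like, 94.2 CPM (90.2 to 98.2) in fibroblast-like and 44.6 CPM (39.0 to 50.7) in smooth muscle-like cells.

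The other 4 members had another order among the named classes. Pi16 was a fibroblast gene in these libraries, at 1098 CPM (1084 to 1111) in fibroblast-like cells. Endothelial-like cells were next in the sums at 137 CPM (116 to 161), an interval that overlapped that of neutrophil-like cells at 135 CPM (114 to 159). At day 3 alone, neutrophil-like cells had 145 CPM and endothelial-like cells 49.7 CPM. Cd248 was found in the mural and stromal classes, at 208 CPM (202 to 214) in fibroblast-like and 35.1 CPM (30.1 to 40.6) in smooth muscle-like cells. It had at most 2.86 CPM in every other named class and 11.2 CPM (6.83 to 17.3) in the unnamed cells. Thy1 was highest in T cell-like cells at 407 CPM (378 to 438), followed by NK cell-like cells at 165 CPM (145 to 186) and fibroblast-like cells at 145 CPM (140 to 150), whose intervals overlapped. Dpp4 was highest in dendritic-like cells at 137 CPM (127 to 147), where plasmacytoid dendritic-like cells (9 cells) had 54.8 CPM (20.1 to 119) and fibroblast-like cells 24.8 CPM (22.8 to 26.9). Outside this order, the unnamed cells had Thy1 at 285 CPM (261 to 311) and Dpp4 at 42.0 CPM (33.0 to 52.6). No member had its highest or second highest level in smooth muscle-like cells except Cd248.

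**Figure D1:**
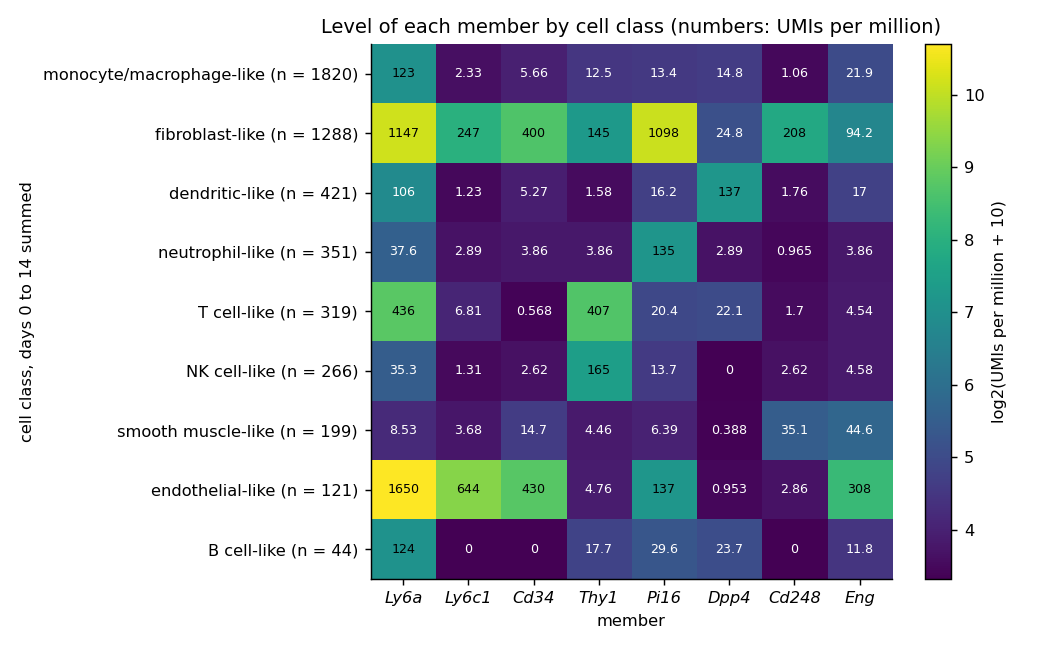
Level of each member (columns) in each named cell class with at least 20 cells (rows), as counts-per-million (CPM) of the class's UMIs summed over the 4 libraries; the colour is log2(CPM + 10) and n is the number of cells. Fibroblast-like and endothelial-like cells hold most of the high values, Thy1 is highest in T cell-like cells, and Dpp4 in dendritic-like cells.

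In fibroblast-like cells the members did not move as a group after injury. Ly6a was higher at day 3, Cd34, Pi16 and Dpp4 were lower at days 3 and 7, and the other 4 stayed within 2-fold of day 0 on every day. The cells compared differ in kind as well as in day: 76.3% of the day 0 fibroblast-like cells lay in a cluster led by Dcn, Igfbp7, Serpinf1 and Fmo2 (the Fmo2 cluster), 54.8% of those of day 3 in a shallow cluster led by Timp1 and Serpinh1, those of day 7 mainly in the Timp1 cluster (42.1%) and a cluster led by Sparc (41.3%), and those of day 14 in the Sparc cluster (47.2%) and a cluster led by Dcn, Igfbp5 and Clec3b (the Igfbp5 cluster, 31.7%). Depth differed too. Cells with over 30000 UMIs gave 0%, 85.7%, 79.5% and 18.1% of the fibroblast-like UMIs in the order of days.

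Ly6a stood at 1008 CPM (966 to 1050), 2088 CPM (2050 to 2126), 730 CPM (708 to 751) and 868 CPM (849 to 887) on days 0, 3, 7 and 14. Day 3 was thus the high point, 2.07 times day 0 (1.98 to 2.17), and days 7 and 14 were below the uninjured level. The share of cells with a Ly6a UMI, after each cell was thinned to 2000 UMIs so that depth was equal, had the same order, with 59.8% (52.3 to 66.9) of 184 cells, 74.5% (66.7 to 81.3) of 149, 43.1% (36.1 to 50.4) of 197 and 53.9% (49.3 to 58.4) of 477. Without thinning the shares were 79.3%, 69.7%, 64.6% and 71.0%, in another order. When each cell counted equally, in place of each UMI, the day 3 ratio was 1.60.

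Ly6c1, the close relative of Ly6a, was at 276 CPM (255 to 299), 297 CPM (283 to 311), 160 CPM (150 to 170) and 267 CPM (257 to 278) on days 0, 3, 7 and 14. Only day 7 was apart, at 0.577 times day 0 (0.521 to 0.640). Its neighbour Ly6c2, a monocyte gene of almost the same sequence, had at most 4 UMIs on any day in these cells, so the Ly6c1 counts do not come with a matching Ly6c2 signal. In the GENCODE transcripts, 25 of 401 windows of 100 bases at the 3' end of Ly6c1 also occurred in Ly6c2, and 153 of 401 windows of Ly6a occurred in the predicted gene Gm28068. The remaining members had no shared window. Ly6e, a further family member with no shared window, was at 168, 341, 309 and 202 CPM and was thus above its day 0 level on every later day.

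Cd34 was at 631 CPM (598 to 665) before injury and at 301 CPM (287 to 316), 279 CPM (266 to 293) and 487 CPM (472 to 501) on the 3 days after it. The 2 early days had 0.478 times (0.445 to 0.513) and 0.442 times (0.412 to 0.475) the uninjured level, and day 14 had 0.771 times (0.726 to 0.820). The thinned share of Cd34-positive cells went with it, at 63.0%, 38.9%, 37.6% and 52.0%. Thy1 took the opposite direction, with 118 CPM (104 to 133), 187 CPM (176 to 198), 145 CPM (136 to 155) and 125 CPM (118 to 133) in the order of days. Its largest ratio in the sums was 1.59 (1.39 to 1.82) at day 3, under the 2-fold used here as a mark of size. When each cell counted equally, the ratio was 1.40 at day 3 and larger at day 7, at 1.55.

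Pi16 and Dpp4, the pair that marks the reserve-like fibroblasts of other tissues, had the largest differences. Pi16 was at 3078 CPM (3006 to 3152) in the uninjured artery and then at 367 CPM (351 to 383), 648 CPM (628 to 668) and 1371 CPM (1347 to 1395). The later levels were 0.119 (0.113 to 0.125), 0.210 (0.202 to 0.219) and 0.445 (0.432 to 0.459) of the uninjured level, so day 3 was lowest and each day after it lay above the one before. Dpp4 was at 31.5 CPM (24.5 to 39.7), 1.58 CPM (0.724 to 3.00), 6.29 CPM (4.45 to 8.63) and 50.1 CPM (45.5 to 54.9), from 70, 9, 38 and 452 UMIs. Day 3 had 0.0503 times the day 0 level of Dpp4 (0.0221 to 0.101), and day 14 had 1.59 times (1.23 to 2.08), or 2.95 times when each cell counted equally. Of the thinned cells, 2.72%, 0%, 0.508% and 6.50% had a Dpp4 UMI in the order of days, where the 0 of 149 cells of day 3 allows a share of up to 2.01% by the limit of 3 cells (Clopper-Pearson bound 2.45%). Both genes were thus lowest at day 3 and higher on each day after it, Dpp4 passing its day 0 level and Pi16 not.

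Because these 2 members shared that course, the 250 bases before their transcription starts are shown. They were read from the RefSeq promoter table of build GRCm38.p6, which held an entry for 5 of the 8 members, and the sequences run 5' to 3' on the gene's own strand. Capitals mark matches on either strand to 5 short motifs: the GC box (GGGCGG), the TATA box (TATAAA), an AP-1 site (TGACTCA), a TEAD site (CATTCC) and the CCAAT box (CCAAT).
Pi16, chr17:29318632-29318881, plus strand: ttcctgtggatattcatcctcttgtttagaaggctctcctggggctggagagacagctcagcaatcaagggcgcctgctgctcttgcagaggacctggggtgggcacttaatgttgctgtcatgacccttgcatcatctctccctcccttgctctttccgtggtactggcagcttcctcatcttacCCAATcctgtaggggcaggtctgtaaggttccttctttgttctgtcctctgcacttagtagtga
Dpp4, chr2:62412232-62412481, minus strand: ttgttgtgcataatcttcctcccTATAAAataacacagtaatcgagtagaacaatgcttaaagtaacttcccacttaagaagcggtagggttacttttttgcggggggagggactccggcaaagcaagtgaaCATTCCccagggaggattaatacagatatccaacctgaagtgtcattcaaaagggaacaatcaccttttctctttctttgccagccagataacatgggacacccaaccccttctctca
The Pi16 window held 1 CCAAT box, a motif in 33.8% of the 32851 windows of the table, and none of the other 4. The Dpp4 window held 1 TATA box (12.4% of all windows) and 1 TEAD match (12.6%). The 2 windows shared no match to these 5 motifs. These are matches of letters and no statement on binding.

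Cd248 was at 205 CPM (187 to 225), 175 CPM (164 to 186), 178 CPM (167 to 189) and 250 CPM (240 to 261) on days 0, 3, 7 and 14, with ratios to day 0 of 0.851, 0.865 and 1.22. Eng was at 107 CPM (93.4 to 121), 102 CPM (93.9 to 111), 103 CPM (95.5 to 112) and 80.0 CPM (74.2 to 86.0). The Eng intervals overlapped on the first 3 days. In the sums day 14 lay lower, at 0.751 times day 0 (0.647 to 0.873). With each cell counted equally, Eng at day 14 was at 0.965 times day 0 and 1.13 times day 3. The thinned share of cells with an Eng UMI was 15.8% at day 0, 12.8% at day 3 and 17.0% at day 14. No lower Eng level per cell at day 14 is therefore read. The small differences of Cd248 at days 3 and 7 turned to the other direction when the Timp1 cluster was left out, with log2 ratios of 0.030 and 0.048 in place of -0.22 and -0.20.

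**Figure D2:**
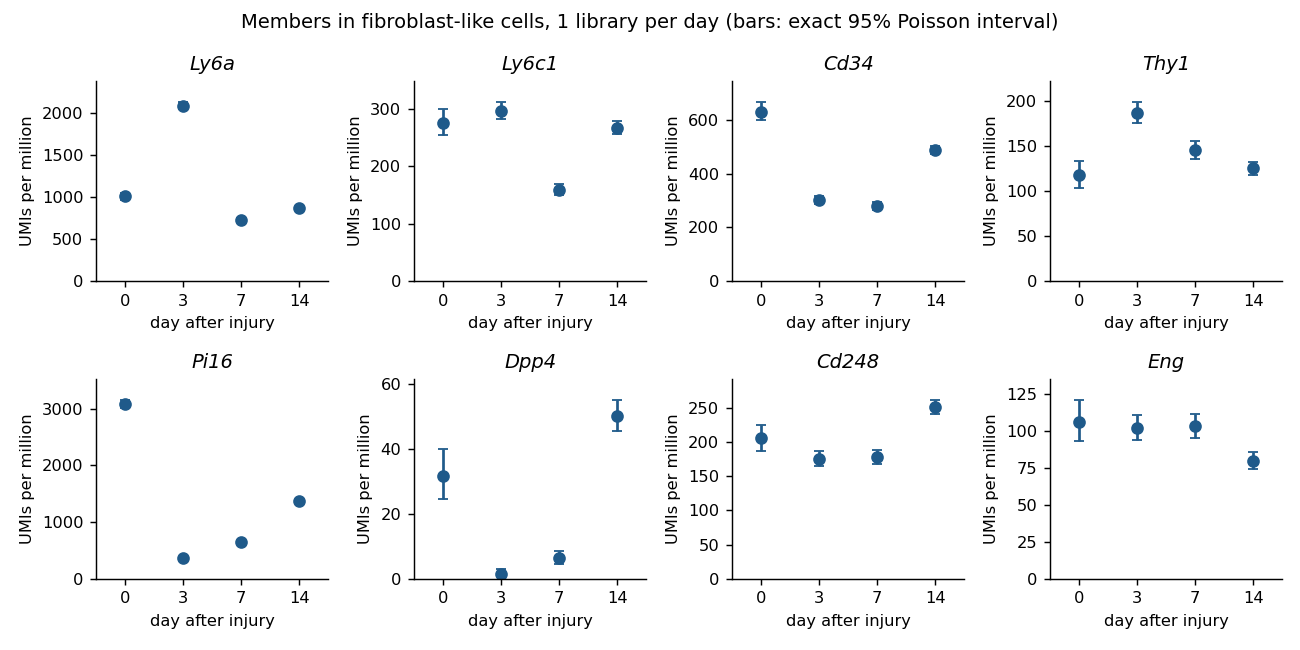
CPM (counts-per-million of the class's UMIs; vertical axis, from 0, with a scale of its own for each gene) of the 8 members in fibroblast-like cells of each library (horizontal axis, days 0, 3, 7 and 14); bars are exact 95% Poisson intervals, which cover counting error only. Ly6a peaks at day 3, Pi16 and Dpp4 are lowest at day 3, and Cd34 is lower at days 3 and 7 than at days 0 and 14.

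Counted against the mark of 2-fold, 1 member was higher and 3 were lower at day 3 than at day 0, where 11.8% of the 11151 genes compared were higher and 11.2% lower. At day 7, 0 members were higher and 3 lower, beside 13.0% and 8.48% of 11413 genes. At day 14, 0 were higher and 1 lower, beside 9.81% and 4.54% of 11703 genes. Pi16, the 1 lower member, was at 0.518 times day 0 when each cell counted equally, which is under 2-fold. The median log2(CPM + 10) difference of the 8 members was -0.14, -0.61 and -0.13 on the 3 days, beside -0.04, 0.01 and -0.01 over all genes. Between days 7 and 14 the count went the other way, with Pi16 at 2.12 times (2.04 to 2.19) and Dpp4 at 7.96 times (5.71 to 11.4) the day 7 level and 0 of 8 lower, beside 7.11% of 12257 genes higher and 7.49% lower. When each cell counted equally, Pi16 was at 1.78 times the day 7 level, under 2-fold, and Dpp4 at 11.4 times. Without cells of over 30000 UMIs the Cd34 difference at day 3 was smaller than 2-fold (log2 -0.79 in place of -1.04) and that of Pi16 was -1.99 in place of -3.04. Without the Timp1 cluster Cd34 was at -0.82 and -0.84 on days 3 and 7, both under 2-fold. Keeping the copies of shared barcodes gave -2.87 for Pi16, -1.80 for Dpp4, 1.03 for Ly6a and -0.998 for Cd34 at day 3, beside -3.04, -1.84, 1.04 and -1.04.

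The levels were uneven among the fibroblast-like clusters, and the Igfbp5 cluster stood out for most members. The clusters were formed from other variable genes of the same cells, and Pi16 was among the 10 leading genes of the Igfbp5 cluster, so the cluster levels are a description. Most of the Dpp4 UMIs of fibroblast-like cells lay in it, 69 of 70, 7 of 9, 27 of 38 and 415 of 452 in the order of days. It held 10.4% (6.83 to 14.9), 0.452%, 6.27% and 31.7% (27.9 to 35.8) of the fibroblast-like cells on these days, and 18.2%, 0.795%, 7.02% and 39.7% of their UMIs. At day 3 the Igfbp5 cluster was 1 cell. The summed Dpp4 level was thus high on the days on which the cluster held more of the cells. Within the cluster Dpp4 was at 170 CPM (132 to 215) at day 0 and 116 CPM (105 to 127) at day 14. For day 7, with 17 cells, no level within it is given, so its share of cells is not read as the whole of the Dpp4 course.

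The same cluster had high levels of the neighbouring members. At day 0, its 25 cells had Pi16 at 9506 CPM, Ly6a at 2732 CPM, Cd34 at 1287 CPM, Ly6c1 at 1053 CPM and Cd248 at 848 CPM. In the 184 cells of the Fmo2 cluster on that day these were 1649, 593, 485, 92.4 and 58.1 CPM. The 30 cells of the Timp1 cluster lay between, with 2352, 1619, 540, 463 and 308 CPM from 8 to 61 UMIs. Thy1 at 173 CPM (135 to 218) against 107 CPM (92.4 to 123) was less apart, and Eng was the same within its interval, 108 CPM (78.8 to 146) against 106 CPM (91.4 to 122). At day 14, the 176 cells of the Igfbp5 cluster had Pi16 at 2378 CPM, Ly6a at 1540 CPM, Cd34 at 734 CPM, Ly6c1 at 549 CPM and Cd248 at 515 CPM, and the 262 cells of the Sparc cluster had 719, 402, 324, 73.0 and 77.1 CPM. Here too the 82 cells of the Timp1 cluster lay between, with 947, 801, 406, 390 and 177 CPM. Eng had the opposite order there, with 63.3 CPM (55.3 to 72.0) in the Igfbp5 cluster and 87.0 CPM (78.9 to 95.8) in the Sparc cluster. The Igfbp5 cluster therefore held 70.5% of the Ly6a UMIs, 81.5% of the Ly6c1 UMIs and 81.7% of the Cd248 UMIs of day 14 fibroblast-like cells, but 31.4% of their Eng UMIs.

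The Ly6a peak of day 3 lay elsewhere. In the Sparc cluster Ly6a was at 3399 CPM (3298 to 3503), 649 CPM (620 to 678) and 402 CPM (384 to 420) on days 3, 7 and 14, with a UMI in 48 of 48 thinned cells of day 3. In the cluster led by Saa3 and Mmp3, an acute-phase protein gene and a matrix metalloproteinase gene, Ly6a was at 2208 CPM (2152 to 2265) at day 3 and 1318 CPM (1253 to 1386) at day 7. The Timp1 cluster was lower, at 886 CPM (842 to 933) at day 3 and 221 CPM (197 to 247) at day 7. Ly6a was thus lower at day 7 than at day 3 in each of these 3 clusters, as it was in the class as a whole. Thy1 was highest of these in the Sparc cluster at day 3, with 292 CPM (262 to 323). In the sums, Pi16 was at 983 CPM in that cluster at both days 3 and 7, when the cluster held 21.9% and 50.5% of the fibroblast-like UMIs. Pi16 there was at 1445 CPM at day 3 and 1061 CPM at day 7 with each cell counted equally.

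**Figure D3:**
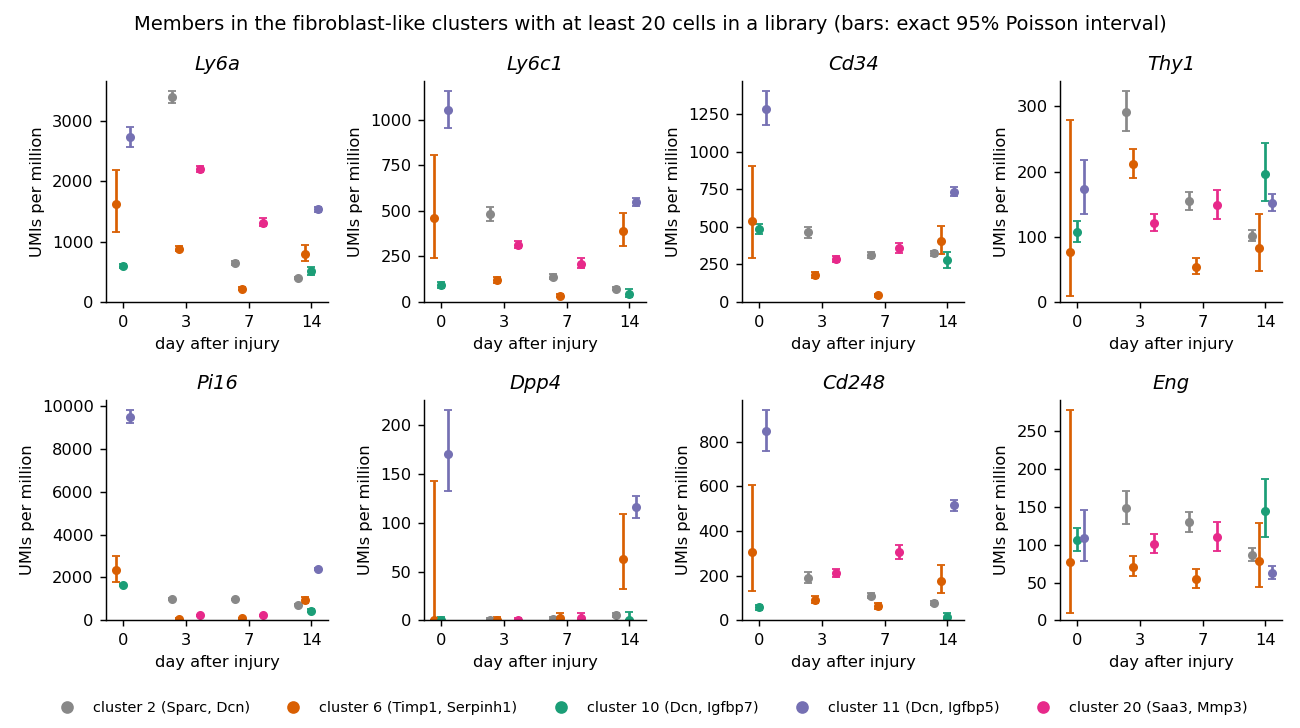
CPM (vertical axis, from 0) of each member in the 5 fibroblast-like clusters, by day (horizontal axis), for clusters with at least 20 cells in a library; colours are clusters, named by 2 leading genes, and bars are exact 95% Poisson intervals. The Igfbp5 cluster is highest for Ly6c1, Cd34, Pi16, Dpp4 and Cd248 at days 0 and 14, and the Sparc cluster for Ly6a at day 3.

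Within single fibroblast-like cells, most pairs of members were found together more often than their separate shares would give. Each cell was thinned to 2000 UMIs, and the number of cells with both members of a pair was divided by the number expected from the product of the 2 shares. This ratio cannot exceed 1 divided by the share of the commoner member, so its upper limit differs between pairs and between days. The median ratio over the pairs with both members in 5 to 95% of cells was 1.11, 1.35, 1.43 and 1.33 on days 0, 3, 7 and 14, and 15 of 21, 18 of 21, 20 of 21 and 26 of 28 pairs were above 1. Over all gene pairs in the same range and the same cells the medians were 0.989, 0.993, 0.985 and 0.995, and between 48.5% and 49.3% of pairs were above 1. The upper quartiles over all gene pairs were 1.28, 1.35, 1.31 and 1.19. The member median was thus below the upper quartile at day 0, about equal to it at day 3 and above it at days 7 and 14. Thinned to 4000 UMIs the member medians were 1.05, 1.13, 1.13 and 1.15, and without the Timp1 cluster 1.11, 1.17, 1.34 and 1.34. The counting interval of a pair, taken as the median of the bounds over pairs, ran from 0.778 to 1.62, 0.893 to 2.00, 0.827 to 2.08 and 1.06 to 1.77, so that a typical single pair could be told from 1 only at day 14. Within the Igfbp5 cluster alone at day 14, the median was 1.19. The median over all gene pairs in those 173 cells was not computed, so nothing particular to the members is read from it. In the other clusters and on the other days the pairs were not computed within a cluster.

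The pairs differed by gene. Ly6c1 with Cd248 was in 21 cells at day 0 where 8.45 were expected, and in 60 at day 14 where 29.4 were expected, ratios of 2.49 and 2.04, with 1.59 and 1.46 on the days between. Ly6a with Ly6c1 had ratios of 1.55, 1.29, 2.12 and 1.74. Cells with a Ly6c1 UMI nearly always had Ly6a, with 39 of 42, 45 of 47, 33 of 36 and 107 of 114 cells on days 0, 3, 7 and 14, between 91.7% and 95.7%. Of the cells without Ly6c1, 71 of 142, 64.7%, 32.3% and 41.3% had Ly6a on these days. In turn 35.5%, 40.5%, 38.8% and 41.6% of the Ly6a-positive cells had Ly6c1, shares that the smaller number of cells with Ly6c1 limits.

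Dpp4 could be paired only at day 14, where 31 of 477 thinned cells had it. All 31 had Ly6a (100%, 88.8 to 100), 29 had Pi16, 28 had Cd34, 27 had Cd248 and 25 had Ly6c1. Of the 446 cells without Dpp4, 50.7% had Ly6a, 56.3% Pi16, 49.3% Cd34, 21.5% Cd248 and 20.0% Ly6c1. The ratios of Dpp4 with Cd248 (3.38) and with Ly6c1 (3.37) were the largest of all 28 pairs on that day. This order follows the shares in part, because pairs with a common member have a lower limit. Dpp4 with Ly6a had 1.86, the most that the share of Ly6a allows. Eng was in 6 of the 31 Dpp4 cells (19.4%) and 16.8% of the others. Its pairs with Cd248 had ratios of 0.514, 0.654, 1.61 and 1.01, from 3, 3, 14 and 21 cells, and at day 14 its 7 pairs lay between 0.926 and 1.27. On the earlier days after injury other pairs of Eng were higher, with Thy1 in 9 cells where 4.59 were expected, the highest ratio of the 21 pairs at day 3, with Pi16 at 1.68 from 12 cells of that day, and with Thy1 at 1.58 and Ly6a at 1.46 at day 7, from 14 and 24 cells.

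**Figure D4:**
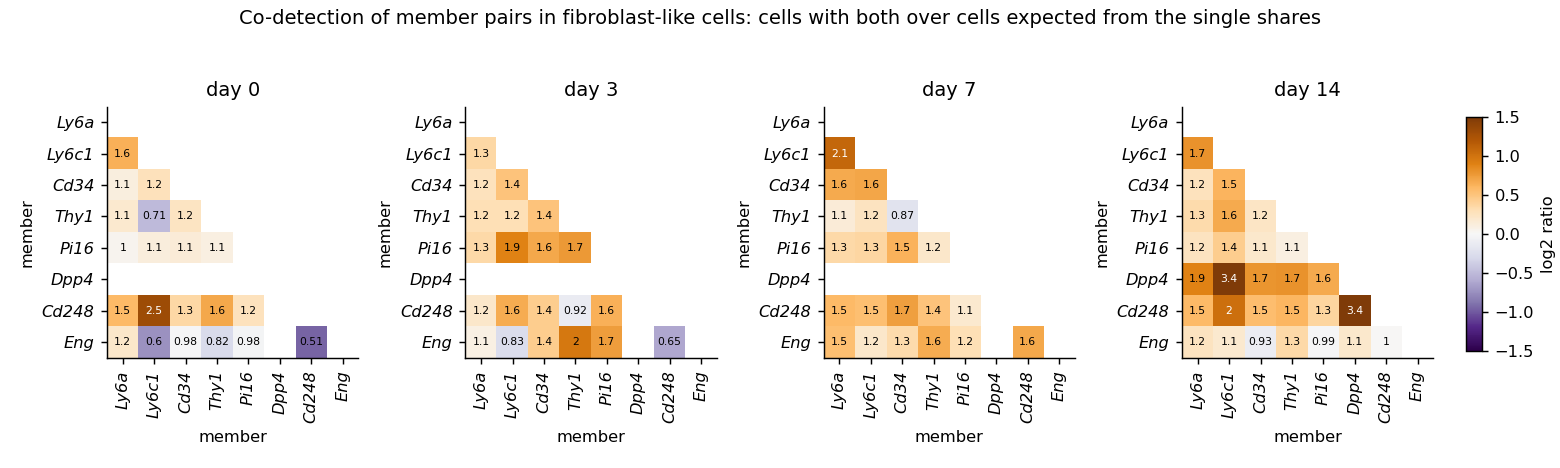
Co-detection of member pairs (rows and columns) in fibroblast-like cells of days 0, 3, 7 and 14, as cells with both members divided by the cells expected from the single shares after thinning to 2000 UMIs; the colour is the log2 ratio, and pairs with a member outside 5 to 95% of cells are blank. Most pairs are above 1, the pairs of Dpp4 with Ly6c1 and Cd248 at day 14 are highest, and pairs with Eng lie between 0.514 and 1.15 at day 0.

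Counted per cell, fibroblast-like cells had a mean of 2.82, 2.44, 2.12 and 2.58 of the 8 members at 2000 UMIs. Both ends of the distribution held more cells than independent detection would give. Cells with 5 or more members made up 15.8% (10.8 to 21.8), 15.4% (10.0 to 22.3), 11.7% (7.55 to 17.0) and 15.9% (12.8 to 19.5) on the 4 days, where the product of the shares gave 6.57%, 4.08%, 2.58% and 5.84%. Cells with no member made up 3.26%, 16.8%, 17.8% and 10.9%, where 1.19%, 3.34%, 7.27% and 3.19% were expected. All 8 members were found together in 2 cells, both of day 14, and the most on the other days was 6, 7 and 7.

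The cells with 5 or more members were not the same kind of cell on each day. At day 0, 19 of the 29 lay in the Igfbp5 cluster, which were 76.0% of its 25 thinned cells, and 9 lay in the Fmo2 cluster (5.73% of 157). At day 3, 18 of 23 lay in the Sparc cluster, 37.5% of its 48 cells, and 2 in the Saa3 cluster. At day 7, 11 lay in the Sparc, 7 in the Saa3 and 4 in the Igfbp5 cluster. At day 14, 62 of 76 lay in the Igfbp5 cluster, 35.8% of 173 cells, and 12 in the Sparc cluster (4.63% of 259). All of these cells had Ly6a on each of the 4 days. Before thinning they were not uniformly the deeper cells, with medians of 16569, 17808, 27244 and 19967 UMIs against 10615, 27970.5, 28273 and 18968 UMIs in the rest.

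**Figure D5:**
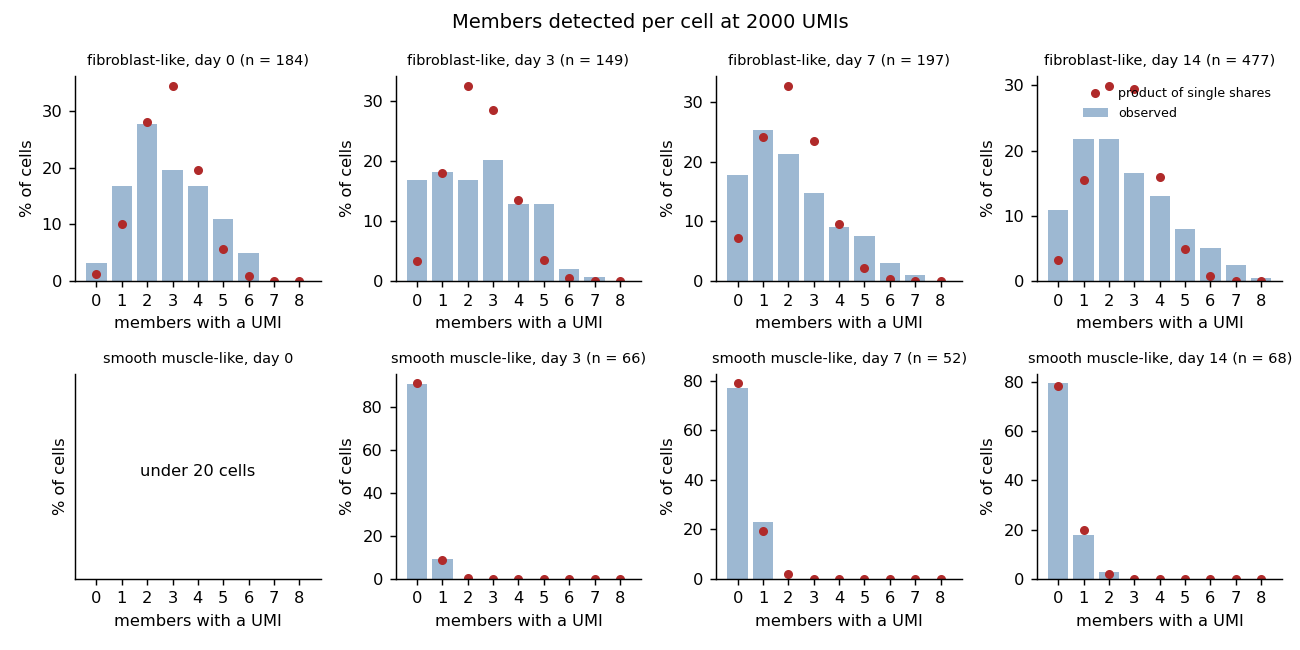
Percent of cells (bars, vertical axis) by the number of members with a UMI at 2000 UMIs per cell (horizontal axis), in fibroblast-like (top) and smooth muscle-like cells (bottom) of each day; points give the percent expected from the product of the single shares. In fibroblast-like cells the bars lie above the points at 0, 5 and 6 members on each day, and no smooth muscle-like cell has more than 2.

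Smooth muscle-like cells held few members. The markers that named this class include the contractile genes Myh11 and Cnn1. The study first annotated its modulated smooth muscle cells as fibroblasts and reported that they need not express Cnn1. Such cells may therefore lie outside the smooth muscle-like class, and its values are not read as a statement on them. At day 0 there were 7 smooth muscle-like cells, too few to describe. The mean was 0.0909, 0.231 and 0.235 members per thinned cell on days 3, 7 and 14 (66, 52 and 68 cells), and 0 of these cells had 3 or more, which allows shares of up to 4.55%, 5.77% and 4.41% by the limit of 3 cells (Clopper-Pearson bounds 5.44%, 6.85% and 5.28%). The day 3 mean was 0.273 with another random draw of the thinning and 0.257 under separate clustering of the libraries, so no difference between day 3 and the later days is read from it. No member was found in 90.9%, 76.9% and 79.4% of the cells, close to the 91.2%, 78.9% and 78.3% given by the single shares. Before thinning, smooth muscle-like cells were as deep as or deeper than fibroblast-like cells at days 3 and 7 (medians of 35419 and 14802 against 4706 and 12129 UMIs) and less deep at day 14 (15158 against 17412).

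Ly6a had 8, 25 and 11 UMIs in the whole smooth muscle-like class at days 3, 7 and 14, or 3.01 CPM (1.30 to 5.93), 21.4 CPM (13.8 to 31.5) and 8.90 CPM (4.44 to 15.9). After thinning it was in 0 of 66, 3 of 52 (5.77%, 1.21 to 15.9) and 0 of 68 cells. At full depth 11.8%, 20% and 10.1% of the cells had it. RNA outside cells was not measured directly. For comparison, neutrophil-like cells had it in 9.95% (6.10 to 15.1) of 191 thinned cells at day 3 and 4.30% (1.18 to 10.6) of 93 at day 7, at median depths of 2860.5 and 3031 UMIs, and monocyte/macrophage-like cells in 12.9%, 12.8% and 5.33%. The Ly6a share of smooth muscle-like cells was below both at day 3, between them at day 7 and below the monocyte/macrophage-like share at day 14, where no cells were called neutrophil-like. Fibroblast markers in the smooth muscle-like class summed to 6323, 10901 and 6209 CPM on these days, highest at day 7 as Ly6a was, and their part in the Ly6a values was not tested. Ly6c1 (0, 16 and 2 UMIs), Dpp4 (0, 2 and 0), Thy1 (9, 6 and 8) and Pi16 (3, 21 and 8) were as scarce.

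Cd34 had 30, 23 and 23 UMIs, or 11.3, 19.6 and 18.6 CPM, and was in 0 of 66, 1 of 52 and 5 of 68 thinned cells. Cd248 and Eng had the most UMIs of the 8 members in this class. Cd248 was at 41.4 CPM (34.0 to 49.9) at day 3, 30.7 CPM (21.5 to 42.6) at day 7 and 26.7 CPM (18.4 to 37.5) at day 14, and Eng was at 56.4 CPM (47.8 to 66.2), 35.9 CPM (25.9 to 48.5) and 29.1 CPM (20.4 to 40.3). At full depth 57.4% of the day 3 cells had a Cd248 UMI and 58.8% an Eng UMI. In neutrophil-like cells of day 3, Cd248 had 0 UMIs and Eng 1 UMI, and in monocyte/macrophage-like cells Cd248 was at 0.313 CPM but Eng at 29.0 CPM. Against day 3, day 14 had 0.645 times the Cd248 level (0.423 to 0.960), 0.516 times the Eng level (0.348 to 0.747) and 1.65 times the Cd34 level (0.915 to 2.94). None of these 3 members with enough UMIs passed 2-fold, beside 5.76% of 9925 genes higher and 9.66% lower. Without cells of over 30000 UMIs, which gave 83.0% of the day 3 UMIs of this class, the log2 differences of Cd248 and Eng were 0.015 and 0.19 in place of -0.49 and -0.76, so the direction depends on the deep cells.

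Within these named classes, single cells with both Ly6a and a contractile gene were rare. Myh11 and Cnn1, a myosin heavy chain and an actin-binding protein of contractile smooth muscle, were looked up in the thinned cells. Both are among the smooth muscle markers used to name the classes. The counts within a class therefore depend in part on the naming, and no share for the whole artery is read from them. Among fibroblast-like cells a UMI of either was found in 1 of 184, 12 of 149, 6 of 197 and 6 of 477 cells from day 0 to day 14, and together with Ly6a in 1, 1, 1 and 0 cells, where 0.598, 8.94, 2.59 and 3.23 were expected from the shares. Among smooth muscle-like cells, 57 of 66, 48 of 52 and 66 of 68 had a contractile UMI, and 1 cell, at day 7, had Ly6a as well, where 2.77 were expected. The Timp1 cluster, whose smooth muscle markers summed to 2963 CPM where the other fibroblast-like clusters had 641 to 1071 CPM, had Ly6a in 32 and a contractile UMI in 13 of 114 cells, and both in 0, where 3.65 were expected.

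Endothelial-like cells carried the vascular members. On days 3, 7 and 14, Ly6a was at 607 CPM (504 to 725), 1952 CPM (1855 to 2052) and 376 CPM (223 to 594), and Ly6c1 at 99.5 CPM (60.8 to 154), 707 CPM (650 to 769) and 272 CPM (145 to 465). Eng was at 84.6 CPM (49.3 to 135), 350 CPM (310 to 394) and 502 CPM (321 to 746), and Cd34 at 592 CPM (490 to 708), 386 CPM (343 to 431) and 418 CPM (255 to 645). The day 14 values rest on 18 cells with 18 UMIs of Ly6a, in which 9 of 13 monocyte/macrophage markers reached 50 CPM and summed to 4932 CPM, beside 164 and 205 CPM at days 3 and 7 and beside 5684 CPM of endothelial markers; their part in these levels was not tested. With the copies of shared barcodes kept, Ly6a at day 14 was at 634 CPM, and with each cell counted equally day 14 was at 2.07 times day 3 in place of 0.620, so no order of Ly6a between these days is read. The 6 cells of day 0 had 58 UMIs of Ly6a and 87 of Ly6c1 and are not compared. Day 7 had 3.22 times the day 3 level of Ly6a (2.67 to 3.90), 7.11 times that of Ly6c1 (4.56 to 11.7), 4.14 times that of Eng (2.54 to 7.21) and 3.25 times that of Pi16 (1.71 to 6.94). Cd34 was at 0.651 times (0.525 to 0.812). When each cell counted equally, the ratios were 2.69 for Ly6a, 8.71 for Ly6c1, 19.9 for Eng, 10.3 for Pi16 and 1.67 for Cd34, the last in the other direction. Fibroblast markers in the endothelial-like class summed to 726 CPM at day 3 and 1430 CPM at day 7, and their part in the Pi16 difference was not tested. At least 2-fold higher were thus 4 of 5 members compared, with 0 at least 2-fold lower, beside 17.1% of 6525 genes higher and 8.41% lower. The class was shallow, with medians of 1112.5 and 1706 UMIs, and 2 and 8 deep cells gave 69.7% and 73.0% of its UMIs on these days.

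Among immune classes, Thy1 marked T cell-like cells on each day after injury, with 574 CPM (467 to 698), 371 CPM (337 to 407) and 491 CPM (416 to 576) on days 3, 7 and 14. Ly6a, which activated T cells are known to raise, was at 138 CPM (88.2 to 205), 544 CPM (503 to 587) and 221 CPM (172 to 280) in these cells. The day 7 level was thus above both other days, while fibroblast-like cells had their peak at day 3. Dpp4 was steady in dendritic-like cells, at 133 CPM (117 to 151), 138 CPM (126 to 151) and 141 CPM (101 to 193), and 76.3%, 72.1% and 66.7% of them had a UMI at full depth. The Igfbp5 cluster of day 14 fibroblast-like cells, at 116 CPM, was close to this level. Monocyte/macrophage-like cells had Ly6a at 133, 130 and 53.0 CPM and Eng between 16.9 and 29.0 CPM, and no other member above 20 CPM after injury.

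Fibroblast-like cells with and without a Pi16 UMI were compared within each day on 5 lists of related genes. At day 14, 280 cells with and 197 without Pi16 differed for Sema3c, a guidance factor, by 10.2 times (5.69 to 20.1), for Cd55, a complement inhibitor, by 5.73 times (3.28 to 10.8), for Efhd1 by 7.39 times (1.81 to 65.0) and for Anxa3 by 2.75 times (1.99 to 3.88), all higher with Pi16. Has1, a hyaluronan synthase, was at 0.147 times (0.0631 to 0.306). In all, 5 of 43 list genes compared were at least 2-fold higher and 3 at least 2-fold lower, where 4.32% and 3.14% of all 5992 genes were. Sema3c was also higher with Pi16 at day 7, by 8.20 times (2.46 to 42.8), while Vcam1, an adhesion molecule, was at 0.277 times (0.167 to 0.440). Also on that day Cspg4 was at 0.280 times, Glipr1 at 0.320 times and Thbd, thrombomodulin, at 2.74 times. Of 31 list genes, 5 were higher and 5 lower, beside 4.81% and 6.08% of 3140 genes. Smooth muscle markers summed to 892 CPM with Pi16 and 2687.5 CPM without at day 7, and to 429 and 896 CPM at day 14. Fibroblast markers summed to 53586 and 42937.5 CPM at day 7, and to 65336 and 68538 CPM at day 14. The part of these markers in the differences was not tested.

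In the uninjured artery, Sema3c was at 6.58 times (1.09 to 269, from 28 UMIs and 1 UMI), Ackr3, an atypical chemokine receptor, at 2.68 times (1.55 to 5.02), Anxa3 at 2.22 times and Id2 at 0.514 times in the cells with Pi16, and Procr had 24 UMIs with and 0 without. There 4 of 24 list genes were higher and 0 lower, beside 9.94% and 4.56% of 2787 genes. Among day 3 cells, Timp2 was at 2.58 times (2.01 to 3.32), Mfap5, a microfibril protein, at 2.38 times (1.92 to 2.94), the interferon response genes Isg15 and Ifit1 at 2.59 and 3.08 times, and Uchl1 at 0.0791 times from 1 UMI against 21. On that day 5 of 26 list genes were higher and 2 lower, beside 10.2% and 9.66% of 2195 genes. At day 3 the smooth muscle markers summed to 509 CPM in the 56 cells with Pi16 and 4941 CPM in the 93 without, and fibroblast markers to 39036 and 22785 CPM, so that the cells without Pi16 also differed in these markers. Their part in the other differences was not tested.

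The related genes had their own courses in the whole fibroblast-like class, here against day 0. The counts of the 5 lists stand beside the shares of all genes at least 2-fold higher and lower, which were 11.8% and 11.2% at day 3, 13.0% and 8.48% at day 7, and 9.81% and 4.54% at day 14. Of 12 companions of Dpp4 and Pi16, 1 was at least 2-fold higher and 3 lower of 11 compared at day 3, 0 and 4 of 12 at day 7, and 1 and 1 of 12 at day 14. Efhd1 was at 0.0559, 0.158 and 0.576 times its day 0 level, and Procr, the receptor of activated protein C, at 0.563, 0.183 and 0.486 times. Timp2, a metalloproteinase inhibitor, was at 0.285, 0.402 and 0.626 times. The 3 genes were picked for their differences, and Procr was lowest at day 7, not at day 3 as Pi16 was.

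Of 12 other mesenchymal surface genes, the counts higher and lower were 3 and 2 of 8, 4 and 0 of 10, and 2 and 2 of 11 on the 3 days, beside the same shares of all genes. Cd44, the hyaluronan receptor, was at 6.99, 3.54 and 1.63 times day 0, Vcam1 at 3.49, 4.69 and 1.05 times, and Cspg4, a proteoglycan of mural cells, at 3.13, 10.5 and 2.56 times from 10 UMIs at day 0. Smooth muscle markers in the fibroblast-like class summed to 713, 1141, 2080 and 673 CPM on days 0, 3, 7 and 14. They were thus highest at day 7, as Vcam1 and Cspg4 were, and their part in these values was not tested. Of 16 relatives of the members, 3 were higher and 5 lower of 11, 4 and 4 of 12, and 2 and 3 of 11. Glipr1, in the family of Pi16, was at 8.11, 10.2 and 4.19 times day 0, and Clec14a, in the family of Cd248, at 0.0757, 0.327 and 0.449 times. Fap, the nearest relative of Dpp4, was at 0.409, 2.72 and 6.37 times (4.70 to 8.86 at day 14).

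In the 10 genes of the endoglin receptor pathway, 0 were higher and 3 lower at day 3 (11.8% and 11.2% of all genes), 0 and 2 at day 7 (13.0% and 8.48%), and 0 and 0 at day 14 (9.81% and 4.54%). The lower ones at day 3 were the BMP target genes Id1 at 0.211 times (0.161 to 0.273), Id2 at 0.446 times and Id3 at 0.449 times, on a day on which Eng itself was at 0.958 times. Of 8 interferon response genes, 5 were higher and 0 lower at both days 3 and 7, and 1 was higher at day 14, with median log2 differences of 1.20, 1.02 and 0.37. Isg15 was at 10.3 times (8.33 to 12.8), 2.89 times and 1.43 times day 0, and Ifit1 at 4.09, 2.28 and 0.934 times.

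Over 24 sums of a class and day with at least 20 cells, in 9 classes, the gene most like each member was found by Pearson's r of log2(CPM + 10) among 7529 genes. The points share libraries and classes, so the values only describe. The order held for Pearson's r and not always by rank: by Spearman's rho, Ramp2 was in place 536 for Ly6a (0.42) and 438 for Ly6c1 (0.56), and Cd34 and Fzd4 were in places 173 (0.63) and 224 (0.61) for Ly6c1. For Cd34, Cpne8 and Slc43a3 were in places 131 (0.85) and 231 (0.82) by rho. Tmem100 was in place 186 (0.48) for Pi16, and Egfr in place 85 (0.80) for Cd248. Ly6a was most like Ly6c1 (0.85), followed by Ramp2 (0.77) and Iigp1 (0.75). Ly6c1 was most like Ramp2 (0.95), Cd34 (0.94) and Fzd4 (0.94), and Cd34 most like Fzd4 (0.99), Cpne8 (0.97) and Slc43a3 (0.96). Thy1 was most like Smap1 (0.89), Crot (0.84) and Abhd8 (0.84), and Pi16 most like Scara5 (0.90), Tmem100 (0.89) and Bace2 (0.89). Dpp4 went with Tbc1d4 (0.85), Tspan33 (0.82) and Fcor (0.81), Cd248 with Twist2, L3hypdh and Egfr (each 0.98), and Eng with Gipc1 (0.94), Acvr1 (0.91) and Capn5 (0.91). Among the members themselves r was 0.94 for Ly6c1 with Cd34, 0.87 for Cd34 with Eng and 0.81 for Ly6c1 with Pi16. Dpp4 was between -0.11 and 0.12 with every other member on this scale.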

How the data were processed

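The deposited files were 4 single-cell matrices of raw counts (UMIs per gene and barcode, not normalized by the authors). The libraries were made with a droplet-based 3' kit after enzyme digestion and dead cell removal. The matrix headers name Cell Ranger 3.0.2, and the submitters' processing notes and the study's methods name the build as GRCh38, a human name, so no coordinate was taken from the files. Barcodes with under 200 genes or over 20% mitochondrial UMIs were removed, as were doublets scored by Scrublet (0.8% per 1000 barcodes, 106 in all; its own threshold marked 15) and 217 shallower copies of shared barcodes. Total counts per library were 2672722, 18989081, 27973418 and 13329564 from day 0 to day 14. Cells were clustered with scanpy 1.11.5 (2000 variable genes without members and listed genes, 30 components, Leiden resolution 1) and named from marker lists, and 7, 34, 489 and 35 cells stayed unnamed. Members and lists were chosen with earlier results of these data known. Levels are CPM of UMIs summed per class and library. Ratios were taken for genes with at least 20 UMIs in both sums together, and log2 values with a pseudocount of 10 CPM. Shares and pairs used cells of at least 2000 UMIs, thinned to 2000. Named genes were the members, the 3 list genes with the largest difference to day 0, the 3 most alike genes of each member, Ly6c2 and Ly6e, and for cells with and without Pi16 the 5 list genes with the largest difference on each day (a comparison by Ly6a, also planned, was not made); a gene that the rule for differences to day 0 names is not reported here. The procedures were tested on simulated data. Alternatives were other filters, clusterings, pseudocounts, depths of thinning and cell sets.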

Additional observations from a re-analysis of the deposited data

Results flagged for a closer look

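In 4 comparisons between days, a member differed in one direction in fibroblast-like cells and in the other in smooth muscle-like cells. With 1 library per day the differences between the classes were not tested. The share of all genes with such opposite directions was not computed, so the count of 4 is not read as a result about the members. Ly6a at day 7 was at 0.349 times the day 3 level in fibroblast-like cells (0.338 to 0.362) and at 7.10 times in smooth muscle-like cells (3.10 to 18.2). Between days 7 and 14, Ly6a was at 1.19 times in fibroblast-like cells (1.15 to 1.23) and at 0.417 times in smooth muscle-like cells (0.185 to 0.878). Over the same days Pi16 was at 2.12 times in the former (2.04 to 2.19) and at 0.361 times in the latter (0.138 to 0.848). With each cell counted equally the smooth muscle-like ratio of Pi16 was 0.928, and those of Ly6a were 5.24 for day 7 against day 3 and 0.502 for day 14 against day 7. Fibroblast markers in the smooth muscle-like class summed to 6323, 10901 and 6209 CPM on days 3, 7 and 14, and their part was not tested. The smooth muscle-like values of both genes rest on 8 to 25 UMIs in each library. Cd248 at day 14 was at 1.43 times the day 3 level in fibroblast-like cells (1.33 to 1.55) and at 0.645 times in smooth muscle-like cells (0.423 to 0.960), the latter without its direction once cells of over 30000 UMIs were left out.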

How the results depend on the processing

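No paired analysis was possible because each day had 1 library. Of the main values under all alternatives, 139 moved by less than their counting intervals, 35 moved and 3 changed direction; of the values of single members and genes, 574, 157 and 6. The co-detection medians of fibroblast-like cells lay between 1.05 and 1.65 under the alternatives run and were 1.05, 1.13, 1.13 and 1.15 at 4000 UMIs, against 1.11, 1.35, 1.43 and 1.33; the intervals they were held against are those of single pairs, too wide to show a move of a median. The fibroblast-like member median at day 7 against day 0 (-0.61) was -0.77 with cells weighted equally, -0.49 with a pseudocount of 50 CPM, -0.41 with libraries clustered separately, -0.35 with at least 500 genes and at most 10% mitochondrial UMIs, -0.33 without deep cells and -0.32 without the Timp1 cluster, which also gave 0.062 at day 3 (-0.14). That of smooth muscle-like cells at day 14 against day 3 (-0.49, 3 members) was -0.025 with the members among the variable genes and turned to 0.30 with no minimum of UMIs, 0.51 with no doublet removal and 0.10 without deep cells, which also gave 0.015 for Cd248 (-0.49) and 0.19 for Eng (-0.76). Cd248 in fibroblast-like cells at day 7 turned from -0.20 to 0.023 under separate clustering, 0.023 under the stricter filter and 0.048 without the Timp1 cluster, and at day 3 from -0.22 to 0.030 without it. Members per fibroblast-like cell from day 0 to 14 were 1.95, 1.60, 1.35 and 1.80 at 1000 UMIs, 3.62, 3.63, 3.24 and 3.40 at 4000 and 4.07, 3.64, 3.96 and 4.53 unthinned, 3.01 and 2.38 at days 3 and 7 under separate clustering, and 3.27 and 2.43 without the Timp1 cluster. Members per smooth muscle-like cell were 0.0727 and 0.0580 at days 7 and 14 at 1000 UMIs, 0.50, 0.388 and 0.381 at 4000, 1.60, 1.33 and 1.10 unthinned from day 3, 0.257 and 0.390 at days 3 and 7 under separate clustering, and 0.273 at day 3 with another random draw. Thinning depth sets detection by construction; the cause of the other moves was not tested. The Timp1 cluster and the copies of shared barcodes were taken up as alternatives after the data were seen. The 6 endothelial-like and 7 smooth muscle-like cells of day 0 were too few to compare.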

Other observations

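Pi16 was also found in neutrophil-like cells. It was at 145 CPM (117 to 177) at day 3 and 117 CPM (84.9 to 158) at day 7, from 97 and 43 UMIs, and in 18.3% and 15.1% of thinned cells. Monocyte/macrophage-like cells of the same libraries had 11.0 and 14.8 CPM and 2.80% and 4.33% of cells. Set against the summed fibroblast markers, neutrophil-like cells had 23.8 and 7.31 Pi16 UMIs per 100 marker UMIs, monocyte/macrophage-like cells 2.78 and 2.14, and fibroblast-like cells 1.11 and 1.43. T cell-like cells had 2.33 and 2.35, dendritic-like cells 2.11 and 3.44, NK cell-like cells 3.70 and 1.75 and B cell-like cells 4.84 at day 7, from 1 to 72 Pi16 UMIs, so that a ratio above that of fibroblast-like cells was not particular to neutrophil-like cells. Fibroblast-like cells of day 0 had 6.46.

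The 11 monocyte/macrophage-like cells of day 0 had 88 Thy1 UMIs, or 546 CPM (438 to 672), and 7 of them (63.6%) had a UMI; 2 cells of over 30000 UMIs gave 46.7% of this class's UMIs. After injury the same class had 2.98 to 15.5 CPM. Plasmacytoid dendritic-like cells, 9 in all, had Ly6a at 823 CPM (662 to 1011), below endothelial-like and fibroblast-like cells and above the other classes.

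Within the Igfbp5 cluster at day 14, where 173 thinned cells were of one cluster, the member pairs had a median ratio of 1.19, for which no value over all gene pairs in these cells was computed. Dpp4 with Cd248 (1.85, 26 cells) and Dpp4 with Ly6c1 (1.67, 24 cells) were again the highest, under the same limit set by the shares. The pairs share cells and members and are no independent counts.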
